A study of Homo sapiens with 12 samples.

Results

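Lumican and its relatives are the proteoglycans considered here, as 9 genes that encode matrix and cell surface core proteins: LUM, DCN, BGN, VCAN, FMOD, PRELP, HSPG2, SDC2 and GPC1. They were chosen by name after earlier results of the same libraries were known, so the comparisons between resistant and parental cells and between the lines selected them and are given for them as values without a test. Of the 9 genes, 8 had a row in both count tables, which share 29735 genes. FMOD had no row and is not analysed here. Core protein RNA was measured in cultures of 2 human melanoma cell lines, A375 and CHL1, with 3 RNA-seq libraries in each of 4 groups. The A375 resistant cells, A375AR991, had been raised in increasing concentrations of palbociclib, an inhibitor of the cell cycle kinases CDK4 and CDK6, over 7 months, and the A375 parental cells were untreated. The CHL1 resistant cells, CHL1AR991, had been raised in the same way over 3 months, and the CHL1 parental cells were untreated. Both resistant lines were maintained in 4 µM palbociclib, and all groups had 72 h without drug before RNA was taken, so no library is of cells under drug. Each resistant group is a single derivative of its line, and the labels do not say whether its 3 libraries are separate cultures. The p-values given for other genes therefore cover the variation among these libraries, part or all of which could be technical.

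A proteoglycan is a core protein that carries sulfated glycosaminoglycan chains. The small leucine-rich members (LUM, DCN, BGN, FMOD and PRELP) bind collagen fibrils and set their spacing, and some of them also bind growth factors and surface receptors. Versican (VCAN) binds hyaluronan in the loose matrix, perlecan (HSPG2) sits in basement membranes, and syndecan-2 (SDC2) and glypican-1 (GPC1) hold heparan sulfate chains at the cell surface, where they bind growth factors. In skin, fibroblasts are a main source of lumican and decorin, and lumican has been studied in melanoma for its effects on cell adhesion and migration.

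Promoter windows of 300 bases, with 250 bases before and 50 from the annotated start, were available for 6 of the 9 genes from RefSeq on GRCh38.p14. The windows of VCAN and PRELP are printed because both genes differed between A375 resistant and parental cells without overlap, VCAN higher and PRELP lower. The VCAN window is chr5:83471494-83471793 on the plus strand, with the GC box (GGGCGG, here on the minus strand) in capitals. The PRELP window is chr1:203475556-203475855 on the plus strand, with both matches to the TEAD motif GGAATG, on either strand, in capitals.
VCAN: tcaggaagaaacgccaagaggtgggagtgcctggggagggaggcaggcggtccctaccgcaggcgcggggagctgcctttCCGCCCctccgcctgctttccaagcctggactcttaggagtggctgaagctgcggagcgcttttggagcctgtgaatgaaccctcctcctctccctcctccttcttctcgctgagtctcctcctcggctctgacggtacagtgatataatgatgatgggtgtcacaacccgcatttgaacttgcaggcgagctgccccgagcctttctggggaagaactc
PRELP: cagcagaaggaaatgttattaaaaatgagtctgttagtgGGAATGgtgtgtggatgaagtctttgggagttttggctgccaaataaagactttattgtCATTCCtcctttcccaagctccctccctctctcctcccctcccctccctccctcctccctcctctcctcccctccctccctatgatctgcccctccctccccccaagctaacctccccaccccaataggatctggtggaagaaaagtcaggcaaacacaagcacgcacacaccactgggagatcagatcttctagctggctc

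The 2 windows differ in base composition. The VCAN window is 60.3% G or C with 15 CpG dinucleotides, near the median of all 35116 promoter windows of this length, which is 58.7% and 14 CpG. The PRELP window is 52.7% G or C with 1 CpG. The GC box was in 45.0% and GGAATG in 14.03% of all windows. The HSPG2 and GPC1 windows were each 83.3% G or C, with 44 and 45 CpG and with 10 and 4 GC boxes. The BGN window had 71.7% G or C, 19 CpG and 5 GC boxes. The AP-1 letters TGANTCA, found in 7.71% of all windows, and the E-boxes CATGTG (11.1%) and CACGTG (7.26%) were in none of the 6. TATAAA, found in 11.5% of all windows, was in the FMOD window alone. Each search covered both strands, and a match is a run of letters and not a shown binding site.

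Library totals ran from 25398920 to 29812686 counts. Each level below is a normalised CPM, the count scaled to library depth with factors that ran from 0.943 to 1.06 over the 12 libraries. A floor of 3 counts stood for 0.101 to 0.118 CPM per library, and it covers counting error only.

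Lumican RNA was higher in A375 resistant than in A375 parental cells and lower in CHL1 resistant than in CHL1 parental cells. LUM had 17.3, 23.7 and 19.1 CPM in A375 resistant cells, against 5.41, 8.95 and 5.77 CPM in A375 parental cells. Every resistant library stood above every parental one, with means of 20.1 ± 3.32 and 6.71 ± 1.94 CPM (SD, n = 3 each) and a log2 fold change of 1.58 ± 0.20 (SE). In CHL1 it had 8.63, 6.81 and 6.95 CPM in resistant cells, against 18.1, 12.1 and 14.3 CPM in parental cells. There every resistant library stood below every parental one, with means of 7.46 ± 1.014 and 14.8 ± 3.07 CPM and a log2 fold change of -1.0 ± 0.14. The log2 fold change in A375 minus that in CHL1 was 2.58 ± 0.27. The highest of the 4 groups was A375 resistant, followed by CHL1 parental, CHL1 resistant and A375 parental. The libraries of the first pair of neighbours in this order overlapped, and so did those of the last pair. These levels rest on 144 to 752 reads per library. In a culture, fewer cells that make a transcript and less of it per cell cannot be told apart.

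**Figure D1:**
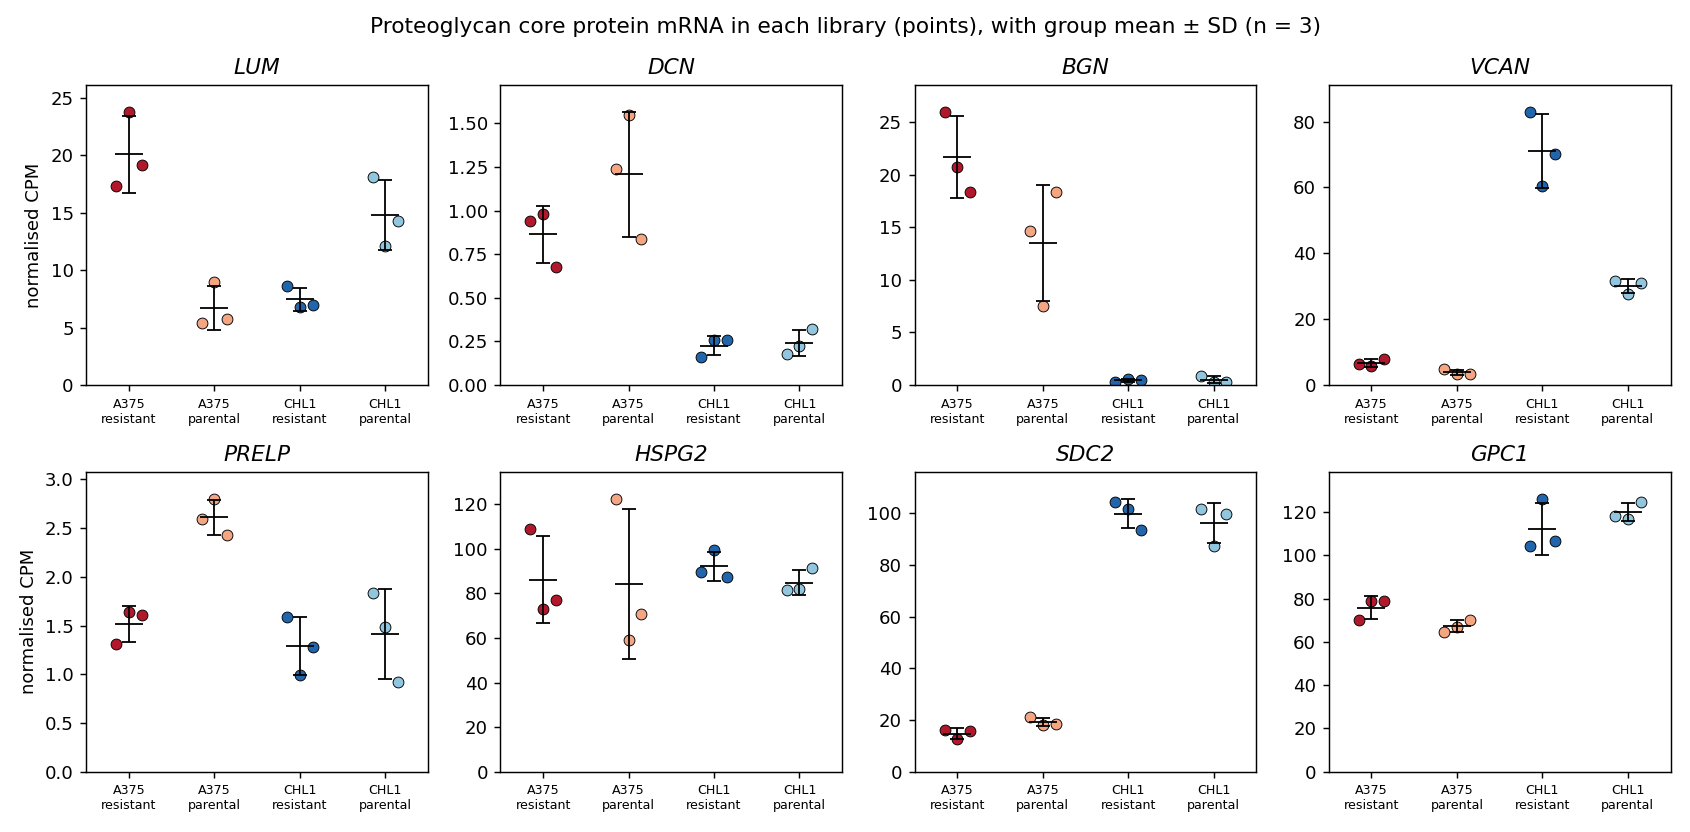
Normalised CPM of the 8 measured proteoglycan genes on linear axes, 1 panel per gene, with each point 1 library and each bar the mean ± SD of 3 libraries. LUM was high in A375 resistant and CHL1 parental libraries, VCAN was highest in CHL1 resistant libraries, and BGN and DCN were low in both CHL1 groups.

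Decorin, the closest relative of biglycan and a collagen and growth factor binder, was low in A375 and near the floor in CHL1. DCN had 0.939, 0.979 and 0.677 CPM in A375 resistant cells, against 1.24, 1.55 and 0.835 CPM in A375 parental cells, and the groups overlapped (log2 fold change -0.47 ± 0.27). In CHL1 it had 4, 7 and 7 counts in resistant libraries and 5, 6 and 8 counts in parental libraries, too few to enter the fit of that line. LUM and DCN lie next to each other on chromosome 12, yet LUM had 1805 and DCN 78 counts summed over A375 resistant libraries.

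Biglycan, a matrix protein that also signals through Toll-like receptors, was many times more abundant in A375 than in CHL1 cells. BGN had 25.9, 20.7 and 18.3 CPM in A375 resistant cells, against 14.6, 7.47 and 18.3 CPM in A375 parental cells. The groups met at parental replicate 3, and the log2 fold change was 0.68 ± 0.27. In CHL1 cells BGN had 0.285, 0.589 and 0.475 CPM in resistant cells, against 0.897, 0.334 and 0.322 CPM in parental cells, which overlapped. The CHL1 log2 fold change of -0.22 ± 0.43 turned to 0.45 without CHL1 parental replicate 1, the library with the highest level. BGN overlaps HAUS7 on the opposite strand, and the kit does not mark the strand. HAUS7 had 144 to 255 counts summed per group, more than the 36 and 42 of BGN in CHL1 resistant and parental cells, so the low BGN counts there are uncertain.

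PRELP, which anchors basement membranes to connective tissue, was lower in A375 resistant cells. It had 1.31, 1.64 and 1.60 CPM in A375 resistant cells, against 2.59, 2.80 and 2.43 CPM in A375 parental cells. The groups did not overlap, and the log2 fold change was -0.78 ± 0.16. In CHL1 it had 1.59, 0.994 and 1.28 CPM in resistant cells, against 1.83, 1.48 and 0.925 CPM in parental cells, which overlapped (-0.16 ± 0.26). These levels rest on 23 to 76 counts per library.

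Versican, the large hyaluronan-binding proteoglycan, was higher in the resistant cells of both lines. VCAN had 6.37, 5.81 and 7.95 CPM in A375 resistant cells, against 4.74, 3.39 and 3.41 CPM in A375 parental cells, with a log2 fold change of 0.80 ± 0.18. It had 82.8, 60.4 and 70.0 CPM in CHL1 resistant cells, against 31.6, 27.5 and 30.9 CPM in CHL1 parental cells, with a log2 fold change of 1.24 ± 0.10. Resistant and parental libraries did not overlap in either line. In order of level the groups were CHL1 resistant, CHL1 parental, A375 resistant and A375 parental, and no neighbours in that order overlapped. The log2 fold change in A375 minus that in CHL1 was -0.44 ± 0.21.

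Perlecan, the heparan sulfate proteoglycan of basement membranes, had overlapping levels in all groups and a wide spread in A375. HSPG2 had 109, 72.9 and 76.9 CPM in A375 resistant cells, against 122, 59.2 and 70.7 CPM in A375 parental cells. Replicate 1 was the highest library in both A375 groups, the groups overlapped, and the log2 fold change was 0.03 ± 0.25. CHL1 libraries had 89.4, 99.6 and 87.1 CPM in resistant cells, against 81.3, 81.7 and 91.2 CPM in parental cells, which also overlapped (0.11 ± 0.06). HSPG2 shares its locus with the opposite-strand RPL21P29, a ribosomal protein pseudogene with 3642 to 5694 counts summed per group.

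Syndecan-2, a membrane-spanning co-receptor, was lower in A375 resistant cells, while the CHL1 groups overlapped. SDC2 had 16.2, 12.5 and 15.6 CPM in A375 resistant cells, against 21.1, 17.9 and 18.5 CPM in A375 parental cells, with no overlap (log2 fold change -0.38 ± 0.11). The CHL1 levels were 104, 102 and 93.5 CPM in resistant cells, against 102, 87.3 and 99.5 CPM in parental cells, which overlapped (0.05 ± 0.06). Glypican-1, a co-receptor held in the membrane by a lipid anchor, overlapped between resistant and parental cells of either line. GPC1 had 70.0, 78.8 and 78.9 CPM in A375 resistant cells, against 64.6, 67.1 and 70.2 CPM in A375 parental cells. Those groups overlapped by 1 library each, with a log2 fold change of 0.17 ± 0.07. In CHL1 it had 104, 126 and 106 CPM in resistant cells, against 118, 117 and 125 CPM in parental cells, and they overlapped (-0.10 ± 0.06).

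In A375, resistant and parental libraries did not overlap for 4 of the 8 measured genes. These were LUM and VCAN, higher, and PRELP and SDC2, lower. By another measure, edgeR's quasi-likelihood test at an adjusted p under 0.05, 13.4% of all 18086 genes tested in A375 were called higher and 14.8% lower. In CHL1 the groups did not overlap for LUM, lower, and VCAN, higher, beside 9.5% of all 17219 genes called higher and 11.5% called lower. The share of all genes without overlap was not computed. Nothing is read from these counts of proteoglycan genes, since the measures differ and the same contrasts chose the genes.

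**Figure D2:**
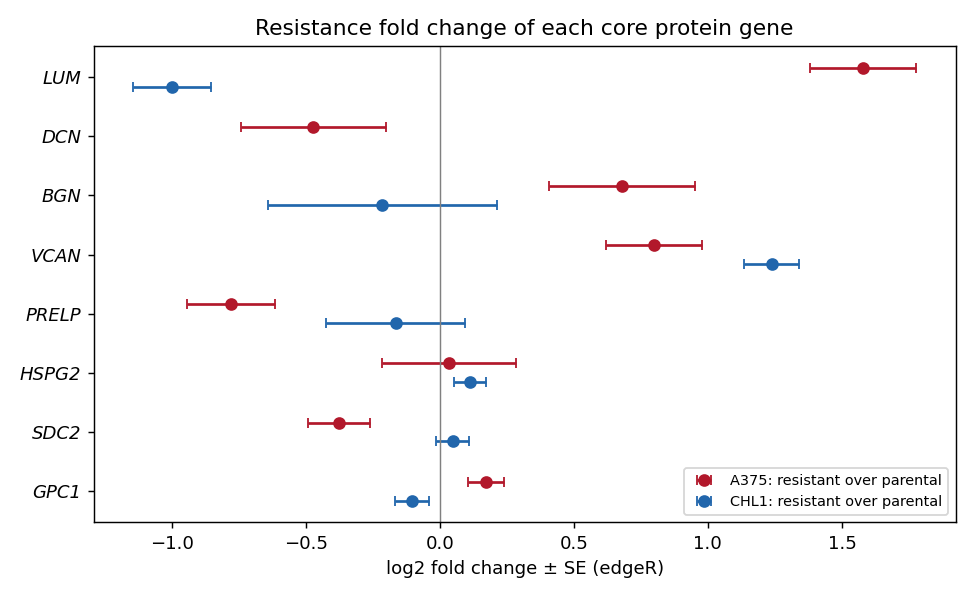
Log2 fold change of resistant over parental cells for each proteoglycan gene in A375 and CHL1, with bars of 1 SE and 3 libraries per group. LUM stood at 1.58 in A375 and -1.0 in CHL1, VCAN was above 0 in both lines, and DCN has no CHL1 value because its counts were too low to be fitted.

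A375 and CHL1 were then set side by side. Among parental cells their libraries did not overlap for 7 of the 8 genes, HSPG2 being the exception, and this count is not read either. By edgeR's test, which is another measure, 75.6% of all genes were called between the parental lines. BGN was 26.0-fold higher in A375 than in CHL1 parental cells by their means, on 42 CHL1 counts that are uncertain for the overlap with HAUS7, and DCN was 5.01-fold higher. VCAN was 7.80-fold, SDC2 5.02-fold, LUM 2.21-fold and GPC1 1.78-fold lower in A375 parental than in CHL1 parental cells. The log2 difference of A375 over CHL1 was 4.69 ± 0.39 for BGN, or 5.36 without CHL1 parental replicate 1, and -2.95 ± 0.16 for VCAN. Among resistant cells the lines did not overlap for 6 genes, all but PRELP and HSPG2, a count that is likewise not read. By the other measure, edgeR's test, 76.6% of all genes were called. BGN was 48.1-fold higher in A375 than in CHL1 resistant cells, and VCAN 10.6-fold and SDC2 6.75-fold lower. LUM changed sides: its log2 difference of A375 over CHL1 was 1.45 ± 0.19 in resistant cells and -1.13 ± 0.19 in parental cells. PRELP, which had separated the parental lines at 0.89 ± 0.22, was at 0.27 ± 0.23 between the resistant ones.

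Divided by the length of each gene's exons, to compare genes with each other, GPC1 had the highest level of the 8 in A375, at 11.6 CPM per kb in resistant and 10.3 in parental cells. BGN followed, at 8.82 and 5.50 CPM per kb. LUM was the third in A375 resistant cells, at 6.67 CPM per kb, and stood behind HSPG2 and SDC2 in A375 parental cells, at 2.23. In CHL1, SDC2 led with 22.0 CPM per kb in resistant and 21.2 in parental cells, and GPC1 followed with 17.2 and 18.4. VCAN had 4.79 CPM per kb in CHL1 resistant and 2.02 in CHL1 parental cells, while LUM had 2.48 and 4.93. BGN had 0.183 CPM per kb in CHL1 resistant and 0.211 in CHL1 parental cells, and DCN was the lowest of the 8 in every group, at 0.0176 to 0.0940. The length used joins the exons of all annotated transcripts of a gene, 12847 bases for DCN. A shorter transcript would give a higher value, so the ranks depend on this length.

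**Figure D3:**
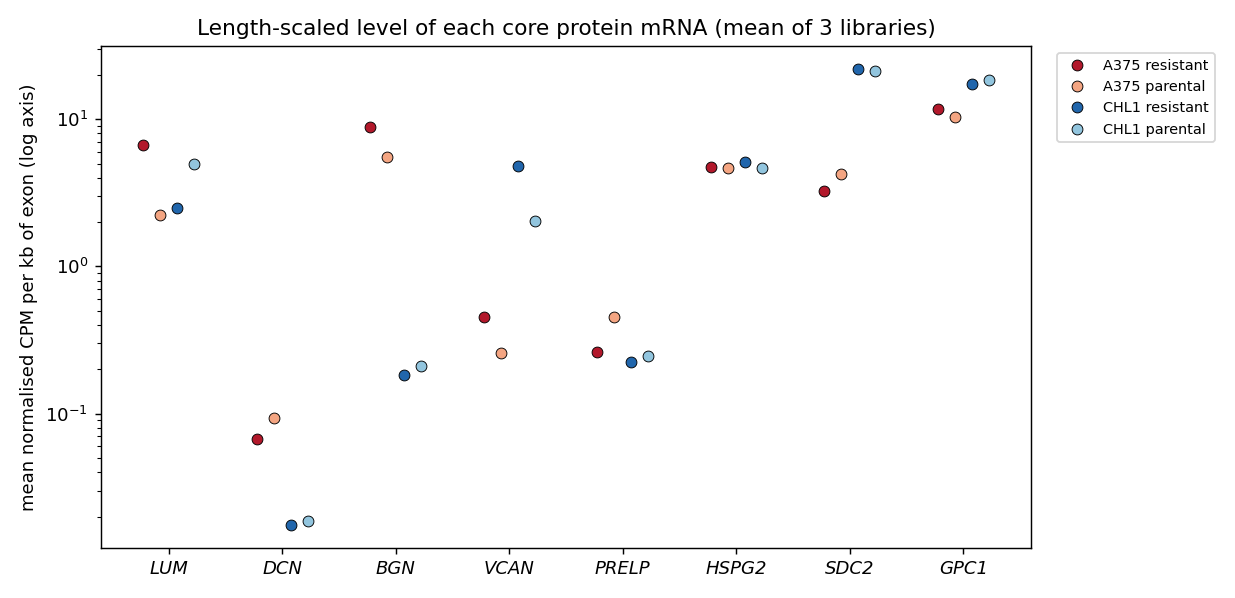
Mean normalised CPM per kb of exon, joined over all annotated transcripts, on a log axis for the 8 proteoglycan genes in the 4 groups of 3 libraries. The cell surface genes SDC2 and GPC1 led in CHL1, GPC1 and BGN led in A375, and DCN was lowest in each group.

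The genes beside LUM and VCAN had median fold changes near 0, with single genes farther out. Of the 20 tested genes nearest to LUM, 10 on each side, 4 were called higher in A375 and 0 lower, and their median log2 fold change was 0.10 (range -0.78 to 0.65). In CHL1 the median around LUM was 0.07 (-0.28 to 0.90). Keratocan (KERA), the next leucine-rich gene of the cluster, had 0 and 1 counts summed over A375 resistant and parental libraries and no CHL1 row, and EPYC had no row in either table. Around VCAN the median was 0.04 in A375 (-0.23 to 0.77) and -0.05 in CHL1 (-0.47 to 0.44). OPTC, which lies next to PRELP, had 2 and 3 counts summed over A375 resistant and parental libraries. On the other side, where FMOD also lies, BTG2 was the nearest protein-coding gene with a row. BTG2 had a log2 fold change of 0.70 in A375, opposite in sign to that of PRELP. BGN stood apart from its surroundings: of its 20 neighbours on the X chromosome, 19 were called lower in A375 and 0 higher, with a median of -0.99 (-3.13 to -0.57). In CHL1 the median around BGN was 0.13.

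**Figure D4:**
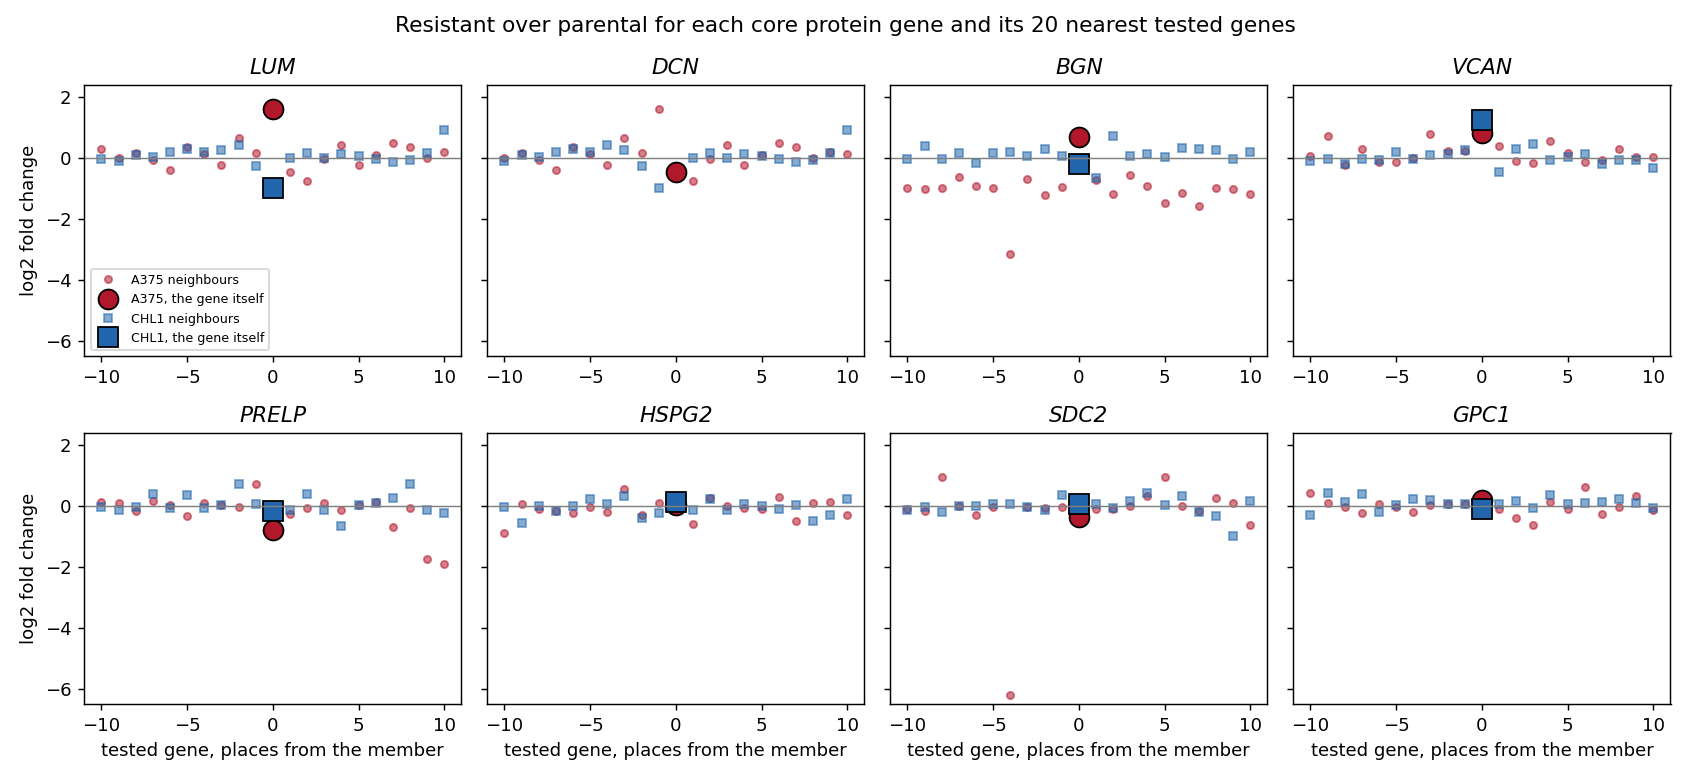
Log2 fold change of resistant over parental cells for each proteoglycan gene and the 10 nearest tested genes on each side, by order along the chromosome, with A375 and CHL1 marked separately. In A375 the medians of the genes around LUM and VCAN are 0.10 and 0.04, with single genes between -0.78 and 0.77, and the median around BGN is -0.99.

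The genes whose pattern over the 12 libraries was most like that of LUM were ACHE, TMTC1, CBLN2, ZNF542P and JPH1. Likeness was the root mean square difference of log2(CPM + 0.5), centred per gene, over 16246 genes, and it ran from 0.315 for ACHE to 0.345 for JPH1. TMTC1 had means of 43.3 and 14.8 CPM in A375 resistant and parental cells, and of 14.2 and 20.5 CPM in CHL1 resistant and parental cells. ACHE, the gene for acetylcholinesterase, had 2.23 and 0.294 CPM in A375 resistant and parental cells, and 0.632 and 1.29 CPM in CHL1 resistant and parental cells. None of the 5 is among the proteoglycan genes or their partners listed here, and all are given as a description of these libraries.

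Around the core proteins, 98 other genes of the pathway were followed: further core proteins, hyaluronan synthases and link proteins, enzymes that build or sulfate the chains, enzymes that cut them, and ligands or receptors. These were not part of the choice of the 9 and were tested with edgeR, with adjustment over all genes, although the list was also written with earlier results known. In A375, 81 had enough counts to be tested, of which 12 rose, 13 fell and 56 did not pass. That is 30.9% called, close to the background of 13.4% higher and 14.8% lower over all genes. By part of the list it was 66.7% of 6 hyaluronan genes, 38.5% of 13 turnover enzymes and 26.9% of 26 chain enzymes. It was 18.2% of 11 ligands and receptors, and from 0% to 33.3% in the other parts. Their median log2 fold change was -0.07, against -0.00 for all genes. In CHL1, 76 were tested, of which 12 rose, 13 fell and 51 did not pass, or 32.9% called, beside 9.5% of all genes higher and 11.5% lower. By part the CHL1 share ran from 14.3% of hyaluronan genes to 53.8% of turnover enzymes. The 12 that rose became 6 without CHL1 parental replicate 2 and 5 in the joint fit of all 12 libraries. The median in CHL1 was -0.01, against 0.01 for all genes. None of the CHL1 calls reached 2-fold, while 16 of those in A375 did. Called in both lines were 8 genes, of which ADAMTS1, HYAL3, HPSE and MET moved in the same direction and ACAN, GPC4, PTPRZ1 and CSGALNACT1 in opposite ones. The CHL1 calls of HPSE, ADAMTS1, GPC4 and PTPRZ1 were lost in the joint fit.

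Of the genes for hyaluronan synthases, link proteins and hyaluronan-binding proteoglycans, 3 of 6 tested rose and 1 fell in A375. HAS2, a synthase of hyaluronan, the chain that versican binds, had 8.86, 7.14 and 8.98 CPM in A375 resistant cells, against 0.94, 1.8 and 2.76 CPM in A375 parental cells. No libraries overlapped, and the log2 fold change was 2.17 ± 0.29 (edgeR adjusted p = 0.00072). The synthase HAS3 rose to 37.3, 37.7 and 43.9 CPM in A375 resistant cells, against 13.5, 14.6 and 20.1 CPM in A375 parental cells (1.30 ± 0.14, edgeR adjusted p = 0.000272). Aggrecan (ACAN), the hyaluronan-binding proteoglycan of cartilage, rose in A375 by 1.20 ± 0.25 on the log2 scale (adjusted p = 0.0067) and fell by 0.52 ± 0.11 in CHL1 (adjusted p = 0.00659). In CHL1, ACAN was the single gene called of 7 tested in this group. HAS2 and HAS3 were at -0.29 ± 0.23 and -0.43 ± 0.22 there, with adjusted p of 0.428 and 0.199. The difference between the lines was itself called for all 3, at 2.46 for HAS2, 1.73 for HAS3 and 1.71 for ACAN, with adjusted p of 0.000633, 0.000801 and 0.000537. HAS2 overlaps HAS2-AS1 and HAS3 overlaps CHTF8 on the opposite strand, so reads of each pair could not be told apart by strand, and CHTF8 had 5770 and 5572 counts summed over A375 resistant and parental cells.

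Enzymes that cut core proteins and chains moved in both directions, with 3 rising and 2 falling of 13 tested in A375. ADAMTS5, a protease of aggrecan and versican, had 3.89, 5.97 and 4.31 CPM in A375 resistant cells, against 0.338, 0.736 and 0.581 CPM in A375 parental cells. The groups were far apart, with a log2 fold change of 3.09 ± 0.28 (edgeR adjusted p = 0.000102). ADAMTS1, a related versican protease, rose by 1.04 ± 0.15 in A375 and by 0.37 ± 0.10 in CHL1 (adjusted p = 0.00111 and 0.0188, the second 0.119 in the joint fit), and ADAMTS20 rose by 1.09 ± 0.25 in A375 (adjusted p = 0.011). Heparanase (HPSE), which cuts heparan sulfate, fell to 3.02, 3.19 and 2.64 CPM in A375 resistant cells, against 6.02, 6.63 and 7.08 CPM in A375 parental cells (-1.15 ± 0.14, edgeR adjusted p = 0.000366). It fell by 0.23 ± 0.07 in CHL1 (adjusted p = 0.041), a call lost in 9 alternatives, DESeq2 among them (0.0801). In CHL1, 1 of 13 rose and 6 fell, and the proteases ADAMTS8 (-0.76 ± 0.12) and ADAMTS9 (-0.68 ± 0.08), named after their values were seen, fell most (adjusted p = 0.000834 and 0.000149).

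Among enzymes that build and sulfate the chains, 2 rose and 5 fell of 26 tested in A375. CHST2, a sulfotransferase that acts on N-acetylglucosamine, had 43.6, 31.7 and 34.5 CPM in A375 resistant cells, against 9.32, 9.76 and 6.90 CPM in A375 parental cells (2.08 ± 0.15, edgeR adjusted p = 3.68e-05). It was below 0.45 CPM in every CHL1 library. CSGALNACT1, which starts chondroitin chains on a core protein, fell by 1.14 ± 0.33 in A375 (adjusted p = 0.0307) and rose by 0.68 ± 0.06 in CHL1 (adjusted p = 1.32e-05), with a called difference between the lines of -1.82 (adjusted p = 0.00103). Its A375 call had an adjusted p of 0.0645 in DESeq2. B3GNT7, an enzyme of keratan sulfate chains, which lumican can carry, had 14.8, 7.58 and 15.6 CPM in A375 resistant cells, against 40.5, 15.5 and 33.8 CPM in A375 parental cells. Those groups overlapped, though each resistant library was below the parental library of the same number, and whether numbers pair samples is not settled. The call (-1.25 ± 0.35, edgeR adjusted p = 0.0286) became 0.0651 in DESeq2. In CHL1, 5 of 23 chain enzymes rose and 2 fell, by at most 0.68 in size.

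**Figure D5:**
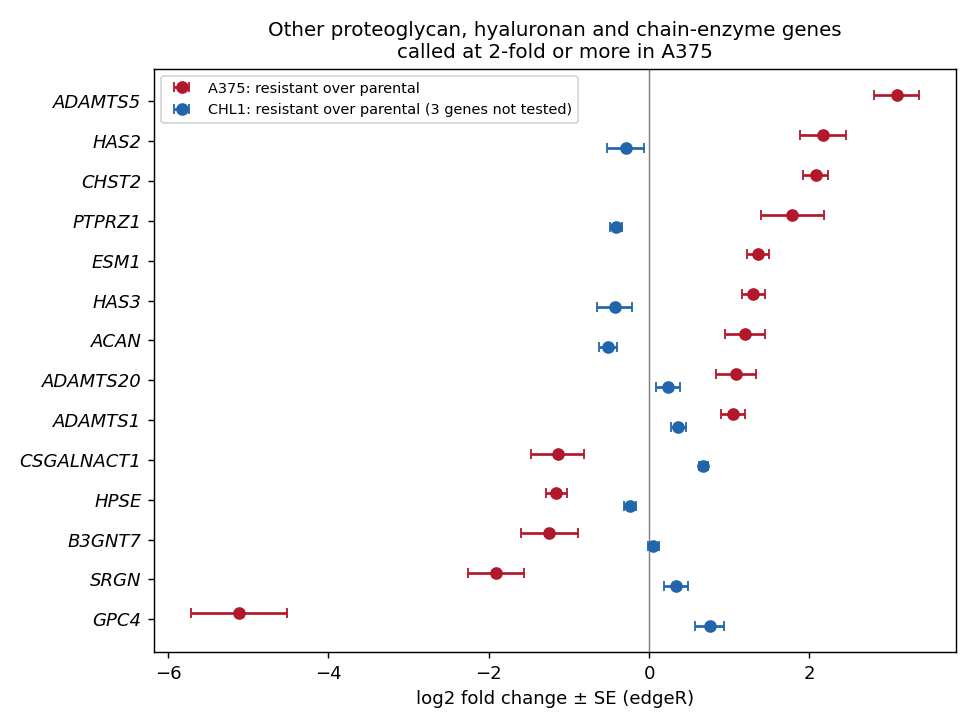
Log2 fold change of resistant over parental cells, with bars of 1 SE, for the 14 pathway genes named in A375, shown for A375 and for CHL1 where they were tested. ADAMTS5, HAS2 and CHST2 lie highest in A375, GPC4 lies lowest, and no CHL1 value passes 1 in size.

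Other core proteins changed singly. Endocan (ESM1), a secreted dermatan sulfate proteoglycan, had 47.4, 46.6 and 37.7 CPM in A375 resistant cells, against 13.7, 18.1 and 19.5 CPM in A375 parental cells (1.36 ± 0.14, edgeR adjusted p = 0.000166). PTPRZ1, a receptor phosphatase that carries chondroitin sulfate, rose by 1.79 ± 0.40 in A375 (adjusted p = 0.00942) and fell by 0.41 ± 0.08 in CHL1 (adjusted p = 0.00286, or 0.35 in the joint fit). Serglycin (SRGN), the proteoglycan of secretory granules, fell by 1.91 ± 0.35 in A375 (adjusted p = 0.00355). It was at 0.34 ± 0.14 in CHL1 (adjusted p = 0.124). The glypican GPC4 had 0.101, 0 and 0.0713 CPM in A375 resistant cells, at or under the floor, against 3.20, 1.58 and 1.49 CPM in A375 parental cells. Its fitted value of -5.12 ± 0.60 (edgeR adjusted p = 0.00037) therefore rests on 5 counts summed over the A375 resistant libraries. That value was -5.78 without A375 resistant replicate 1 and -4.52 without A375 resistant replicate 2. Of the 20 neighbours of GPC4 on the X chromosome, 17 were called lower in A375, with a median of -0.91. In CHL1, GPC4 rose by 0.76 ± 0.18 (adjusted p = 0.0112), a call lost in DESeq2 (0.0784) and in the joint fit (0.136). CD44, a hyaluronan receptor that can carry chains (0.54 ± 0.05, adjusted p = 4.23e-05), and collagen XV (COL15A1, 0.74 ± 0.11, adjusted p = 0.000633) rose too, the last 2 named after their values were seen. Of the other small leucine-rich genes, 3 of 13 had enough counts in A375, and ECM2, PODNL1 and TSKU had edgeR adjusted p of 0.649, 0.291 and 0.592. In CHL1 1 of 4, CHADL, rose by 0.31 ± 0.09 (adjusted p = 0.0344). Of the ligands and receptors of the core proteins, 2 of 11 fell in A375 and 0 rose, MET by 0.60 ± 0.09 (adjusted p = 0.00172) and TLR2, which stayed under 1 CPM. MET, the receptor of hepatocyte growth factor, also fell in CHL1, by 0.37 ± 0.06 (adjusted p = 0.00118), and the integrin subunit ITGA2 rose there.

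By the difference between the lines, 24 of 86 pathway genes were called, or 27.9%, with 12 in each direction, beside 23.6% of all 19241 genes. Between parental lines 72 of the 86 were called and between resistant lines 75, or 83.7% and 87.2%, beside the shares of all genes given above. HAPLN1, the link protein that fastens aggrecan and versican to hyaluronan, had 125 ± 33.7 and 95.8 ± 17.1 CPM in A375 resistant and parental cells, and under 0.2 CPM in every CHL1 library. Its log2 difference of A375 over CHL1 was 9.69 ± 0.34 in parental cells (edgeR adjusted p = 1.51e-12). COL18A1, a basement membrane collagen that carries heparan sulfate, lay the other way, at -5.17 ± 0.15 in parental cells (adjusted p = 1.44e-13). Both were named after their values were seen.

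Markers of fibroblasts, which make lumican in skin, moved in both directions in A375. The summed level of 11 fibroblast markers was 41.9 to 44.1 CPM in A375 resistant and 20.1 to 28.8 CPM in A375 parental libraries. Of 8 tested, 5 rose (COL1A2, FAP, COL3A1, PDGFRA and ACTA2) and 2 fell (PDGFRB and POSTN), beside 13.4% of all genes called higher and 14.8% lower. COL1A1 had an edgeR adjusted p of 0.627. COL1A2, which makes up a large part of the higher sum, stood at 13.8 ± 1.27 CPM in A375 resistant cells, against 0.381 ± 0.372 CPM in A375 parental cells, and PI16 was under 0.1 CPM in both. The part of these genes in the LUM difference was not tested. In CHL1 the sum was 7.48 to 9.32 CPM in resistant and 7.79 to 8.15 CPM in parental libraries, and the 4 tested markers COL1A1, PDGFRB, ACTA2 and PI16 had edgeR adjusted p of 0.938, 0.251, 0.791 and 0.957. There COL1A2, COL3A1, THY1, PDGFRA, FAP and POSTN were under 0.1 CPM or without a row in both groups. The 4 tested markers, in the same order, had means of 1.40, 3.84, 2.71 and 0.410 CPM in CHL1 resistant cells. In CHL1 parental cells they had 1.36, 3.26, 2.58 and 0.416 CPM. The part of the fibroblast markers in the LUM difference of CHL1 was not tested either. The melanocytic markers, led by SOX10, summed to 252 to 393 CPM in A375 resistant and 412 to 561 CPM in A375 parental libraries, and to 1167 to 1383 CPM in CHL1 resistant and 1133 to 1379 CPM in CHL1 parental libraries. Of the 8, MITF fell by 0.48 ± 0.15 in A375 and by 0.37 ± 0.07 in CHL1 (edgeR adjusted p = 0.0423 and 0.0028). TYRP1 rose by 3.02 ± 0.29 in A375, at 1.73 ± 0.306 CPM in resistant and 0.209 ± 0.053 CPM in parental cells (edgeR adjusted p = 0.000122, n = 3 each). In CHL1, DCT fell by 1.22 ± 0.07 and S100B rose by 0.69 ± 0.05 (edgeR adjusted p = 4.13e-07 and 3.13e-06). Their part in the LUM differences was not tested. The pigment genes PMEL and MLANA were near 1 CPM or lower in every group, and TYR had no row in A375. Leukocyte markers summed to 54.5 to 71.5 CPM in A375 resistant and 54.4 to 78.9 CPM in A375 parental libraries, and to 10.7 to 11.7 and 10.9 to 11.8 CPM in CHL1 resistant and parental libraries, with CD3E under 0.1 CPM in each group. Endothelial markers, mostly KDR, summed to 8.32 to 14.2 CPM in A375 resistant, 5.19 to 12.4 CPM in A375 parental and at most 2.60 CPM in CHL1 libraries. Keratinocyte and epithelial markers summed to 4.66 to 5.38 CPM in A375 resistant, 19.9 to 28.1 CPM in A375 parental, 3.34 to 5.19 CPM in CHL1 resistant and 1.65 to 3.12 CPM in CHL1 parental libraries. Most of each sum was KRT14, which fell by 2.35 ± 0.16 in A375 and rose by 1.07 ± 0.24 in CHL1 (edgeR adjusted p = 2.25e-05 and 0.00802). KRT5 also fell in A375 (edgeR adjusted p = 0.000915), while CDH1 and EPCAM had too few counts to be tested there.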

How the data were processed

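RNA-seq libraries of 12 samples were analysed from 2 deposited tables of read counts per Ensembl gene, 1 per line, with 33932 genes for A375 and 32478 for CHL1. The authors' deposited counts are whole numbers without normalisation. Per the submitters' processing notes, CASAVA 1.8.2, cutadapt 1.7, TopHat2, HTSeq 0.5 and limma were used. Genome build and annotation: not given in the sources used here. Symbols came from a table of names and GENCODE 29, which also gave exon lengths and gene order, and 2484 and 2284 identifiers found none. Promoter sequences are RefSeq's on GRCh38.p14, matched by symbol.

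Groups came from the cell line labels. Each line was fitted in edgeR 4.0.16 (R 4.3.3) with TMM factors, filterByExpr (minimum count 10) and the two-sided quasi-likelihood F-test, and a Benjamini-Hochberg adjusted p under 0.05 made a call. The SE of a log2 fold change is its absolute value divided by the square root of the F of that test, and not a separately fitted standard error. Effects of the lines, and the difference between them in the effect of resistance, came from 1 fit of all 12 libraries over genes in both tables. Printed CPM used the TMM factors of all 12. The 9 genes, the list of 98 and the markers were chosen with earlier results of these data known. Pathway genes were named per line if called, at least 2-fold changed and at least 1 CPM in the higher group, up to 14 by adjusted p. This was met by 14 in A375 and 0 in CHL1. All 9 genes, their cluster neighbours KERA, EPYC and OPTC, and the 5 genes most like LUM were also named by rule. Alternatives were other size factors, total counts, DESeq2 1.42.0, other filters, a replicate block, 1 joint fit and leaving out each library. Since reads carried no molecular identifiers, floors cover counting error only.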

Additional observations from a re-analysis of the deposited data

Results flagged for a closer look

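The effect of resistance in A375 minus that in CHL1 was called by edgeR's interaction test for 12 of the 14 pathway genes named, beside 23.6% of all genes. The 14 were named for their change in A375, while 0 genes met the same rule in CHL1, so the choice favours a difference between the lines and the count is not read. On the log2 scale it was higher in A375 for ADAMTS5 (4.33, adjusted p = 0.000132), CHST2 (2.94, 0.00237), HAS2 (2.46), PTPRZ1 (2.20, 0.00123), HAS3 (1.73), ACAN (1.71) and ADAMTS1 (0.68, 0.0227). It was lower in A375 for GPC4 (-5.87, adjusted p = 1.16e-05), SRGN (-2.24, 0.000834), CSGALNACT1 (-1.82), B3GNT7 (-1.30, 0.0194, but 0.0597 in DESeq2) and HPSE (-0.92, 0.000224). ADAMTS5 and CHST2 had too few counts to be tested in CHL1 on its own, so their differences rest on A375 values and a few CHL1 reads. LUM had every A375 resistant library above, and every CHL1 resistant library below, its parental libraries, with a difference of 2.58 for which no test is given, since the same contrasts chose the gene.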

How the results depend on the processing

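Counts of called genes stayed within 1.5 times their value in 314 of 320 recomputations. Pathway genes that fell in A375 were 21 with the replicate block and 20 with all 12 libraries in 1 fit, in place of 13. Genes called higher in CHL1 were 1068 in the joint fit and 1050 to 1410 with 1 library left out, in place of 1636, the lowest without CHL1 parental replicate 2. Pathway genes that rose in CHL1 were 5 in the joint fit and 6 to 10 with 1 library left out, in place of 12, again lowest without that library. The cause was not tested. The LUM difference between lines ran from 2.44 to 2.87 with 1 library left out, highest without A375 parental replicate 2. Signs turned for HAS2 in CHL1 (range -0.43 to 0.024, highest without CHL1 parental replicate 1), B3GNT7 in CHL1 (range -0.0036 to 0.14, lowest without CHL1 parental replicate 2) and the ESM1 difference between lines (range -0.75 to 0.97, lowest without CHL1 parental replicate 1), none of them called. Leave-one-out log2 fold changes crossed 0 for HSPG2 in A375 (-0.17 to 0.40), for BGN (-0.46 to 0.45), PRELP (-0.38 to 0.06) and SDC2 (-0.02 to 0.09) in CHL1. The A375 calls of CSGALNACT1 and B3GNT7 reached adjusted p of 0.0872 and 0.0906, and the CHL1 call of HPSE 0.136. Those of GPC4, ADAMTS1 and PTPRZ1 in CHL1 reached 0.136, 0.119 and 0.35, and those of the ADAMTS1 and B3GNT7 differences 0.0604 and 0.0597. Scaling by total counts alone moved the median of all genes to 0.13 between parental and 0.12 between resistant lines, from 0.03 and 0.01, and GPC1 between parental lines to -0.71. Replicate numbers follow sample labels that recur in every group. Same-numbered libraries deviated together weakly (r from -0.01 to 0.27 in A375 and 0.01 to 0.15 in CHL1). Of 6 libraries per line, 4 in A375 and 2 in CHL1 matched their own number best. In A375, r was 0.26 and 0.27 for replicates 1 and 2, against -0.23 and -0.31 when these were crossed, and -0.01 for replicate 3. Each group was centred on its own mean first, so positive matched values force negative ones elsewhere, and the crossed values are not separate evidence. These values do not settle whether numbers pair samples in A375, and the main fits did not pair them. With the replicate block, more of all genes were called in A375 in each direction. Depth limits DCN in both lines and BGN in CHL1.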
